A study of Mus musculus with 6 samples.

Results

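The genes described here are the nuclear-encoded subunits of the respiratory chain and of ATP synthase, measured by RNA sequencing in the tibialis anterior (TA) muscle of aged mice with and without the selenoprotein SELENOW. Members were the protein-coding genes of the count table whose symbol names a subunit of complex I (Ndufa, Ndufb, Ndufc, Ndufs or Ndufv, without the Ndufaf assembly factors), complex II (Sdha to Sdhd), complex III (Uqcr, with Cyc1), cytochrome c (Cycs), complex IV (Cox4i, Cox5, Cox6, Cox7 or Cox8) or ATP synthase (Atp5). The rule used names only and no measured value. It gave 88 of the 55416 genes of the table: 38 in complex I, 4 in complex II, 10 in complex III with cytochrome c, 18 in complex IV and 18 in ATP synthase. Ndufa4 was counted in complex I by its name, although its protein is now placed in complex IV. Of the 88 members, 85 had enough counts to be tested. The other 3, all of complex IV and known mainly from testis, were nearly silent: Cox7b2 had 1 count over all 6 libraries, Cox8c had 3 and Cox6b2 had 7.

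The series holds 3 WT and 3 SELENOW KO libraries, named WT1 to WT3 and KO1 to KO3, each from the TA muscle of a naturally aged mouse of 24 months on the C57BL/6N background, male by the study's methods. WT mice carry the intact gene, and KO mice are a whole-animal line in which CRISPR/Cas9 with 2 guide RNAs removed exon 4 of Selenow. The question of the comparison was how loss of SELENOW changes gene expression in aged muscle. The sources used here name neither littermates nor library batches. The p-values per gene set the difference between genotypes against the spread between libraries of the same genotype, which may be partly technical.

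Oxidative phosphorylation takes place in the inner mitochondrial membrane. Complexes I and II feed electrons from NADH and succinate to ubiquinone, complex III passes them to cytochrome c, and complex IV passes them to oxygen. Complexes I, III and IV pump protons, and ATP synthase uses the returning protons to turn its rotor and make ATP. Most subunits are made from nuclear genes in the cytosol and imported, while a small set, including the catalytic core of complex IV, is made from mitochondrial DNA, so the supply of both genomes has to meet in each complex. In fast muscle such as the TA, several complex IV subunits come in a muscle form and a general form.

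Total counts were 25351976 to 29111213 per library, and the members took 268821 to 356840 counts per library. Mitochondrially encoded genes took 29.1% to 37.3% of the counts in WT and 35.4% to 40.3% in KO. Of the counts from nuclear genes, the members took 2.25%, 1.63% and 1.77% in WT1, WT2 and WT3 and 1.62%, 1.62% and 1.72% in KO1, KO2 and KO3. WT1 therefore stood apart from the other 5 libraries before any test was made. Selenow itself had 268, 245 and 219 counts per 1000000 counts (CPM) in WT and 193, 212 and 210 CPM in KO (log2 fold change -0.25, SE 0.14, edgeR adjusted p = 0.604), and counts per gene do not show whether exon 4 was missing. The study reports from a Western blot that the protein was lost in TA muscle of KO mice. Of the marker genes of muscle fibers, all 6 were in the table, and their summed level was 74342 to 97120 CPM in WT and 82055 to 95154 CPM in KO. The summed level of 3 erythroid markers was 105 to 174 CPM in WT and 81.1 to 96.6 CPM in KO, with WT1 at 120 CPM. Of markers of slow or oxidative fibers, all 6 were in the table, with summed levels of 2959, 2357 and 2199 CPM in WT1, WT2 and WT3 and 2447 to 3068 CPM in KO. Mb and Myh2 made up most of this sum. Of the 6 genes 3 were lower in KO, Tnni1, Tnnt1 and Myl2, and the median log2 fold change of the list was -0.14. For 3 endothelial markers the summed levels were 75.5, 57.4 and 44.2 CPM in WT1, WT2 and WT3 and 68.1 to 80.4 CPM in KO. In both of these sums WT1 was the highest WT library, but the KO libraries were above WT2 and WT3. The part of these cell types in the results was not tested. In bulk tissue, fewer cells of a type and less RNA per cell cannot be told apart.

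The median member was lower in KO by a small amount, and this rested on WT1. With all 6 libraries the median log2 fold change (KO against WT) of the 85 members was -0.17, a fold of 0.886, against a median of -0.0042 over the 15623 genes tested. Below 0 were 72 of the 85, or 84.7%, against 50.6% of all genes tested. Without WT1 the median was 0.05 and 32 of 85 were below 0. Leaving out any other library gave medians between -0.29 and -0.13.

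No member passed an adjusted p of 0.05 in edgeR's quasi-likelihood test, as for all genes tested (0.0% of 15623). DESeq2 gave none among the members either, while 45 of the 15623 genes passed with it. At an unadjusted p under 0.05, 6 members were lower (5.16% of all genes tested were) and 0 were higher (4.73% of all genes tested were). With the study's thresholds for differentially expressed genes, which add a fold change over 1.5 or under 0.7, 2 members were called lower, 2.35% of 85, against 3.14% of all genes tested. None was called higher, against 2.21% of all genes tested. Every KO library lay below every WT library for 9 members, or 10.6%, against 7.87% of all genes tested, and above it for 1 member, or 1.18%, against 7.53%. The shares of members called lower, and of members with every KO library below WT, were thus close to those of the whole table. The share below 0 was not, and most of those differences were small.

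**Figure D1:**
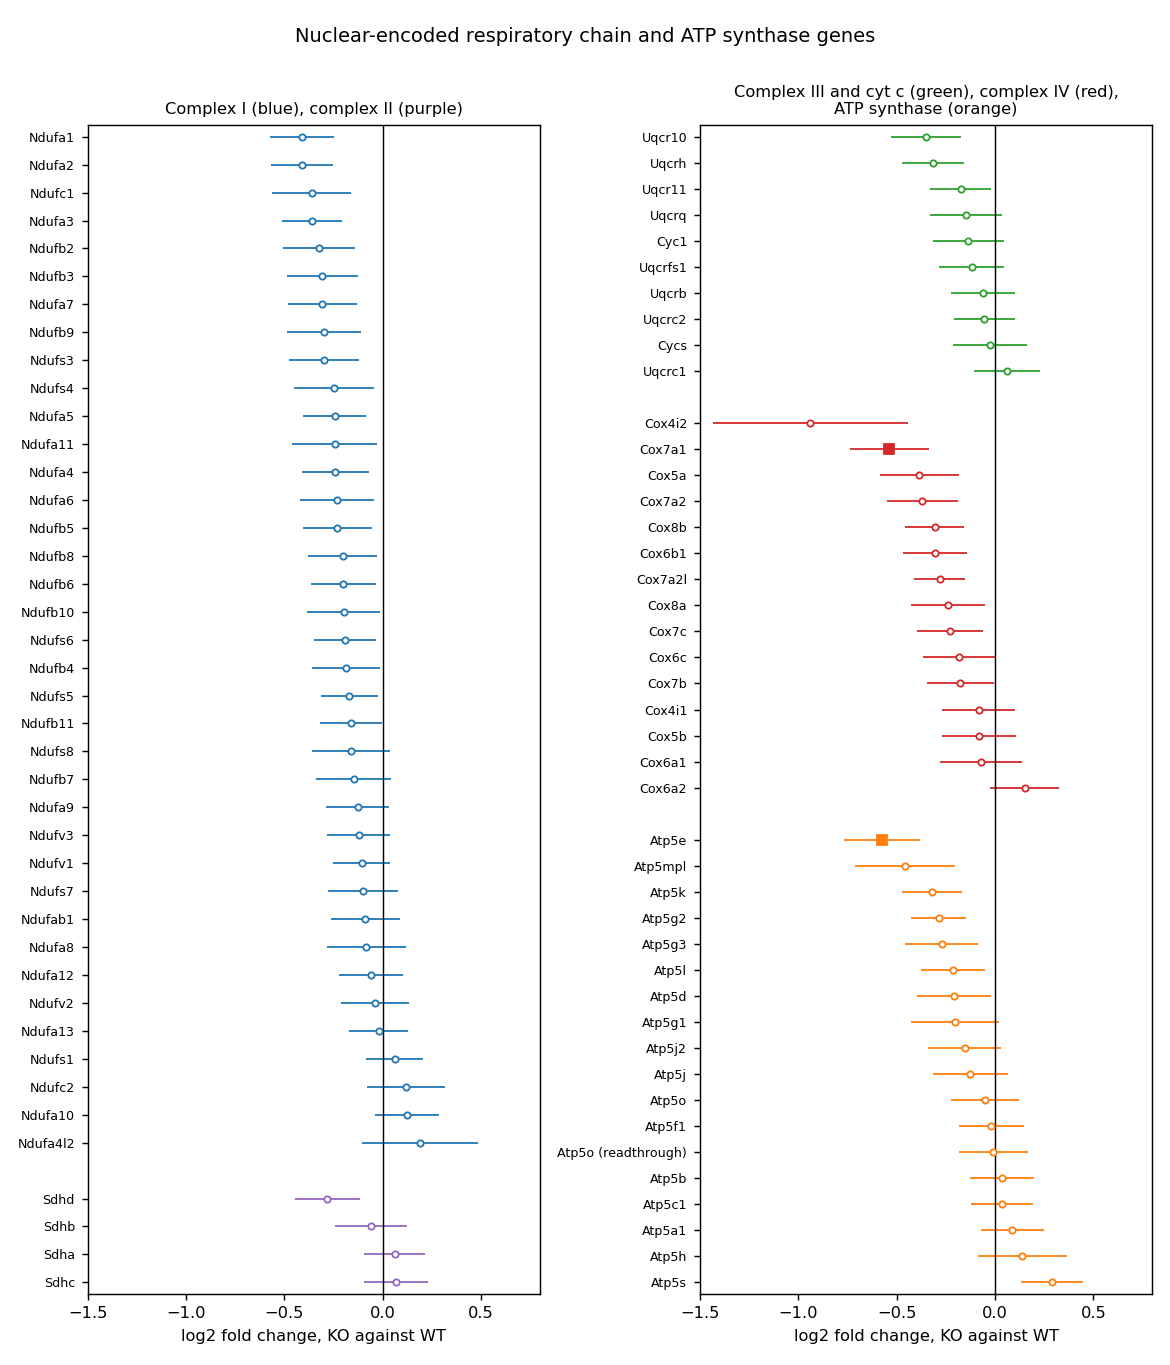
Log2 fold change of KO against WT (x axis) for 84 of the 85 tested genes, grouped by complex and ordered by value, with all 6 libraries. Bars are 1 standard error, filled squares are the 2 genes called lower and open circles the others; most points lie left of 0 with bars of about the size of the difference.

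The dependence on WT1 was seen gene by gene. Relative to each gene's WT mean on the log2 scale, the members' median level was 0.37 in WT1, -0.15 in WT2 and -0.22 in WT3, and -0.12, -0.21 and -0.11 in KO1, KO2 and KO3. KO2 lay between WT2 and WT3, and KO1 and KO3 lay slightly above both, all far under WT1. WT1 held the highest value in 78 of 85 members (91.8%), while it was the highest library for 20.7% of all genes tested. For no member was it the lowest. The 3 KO medians had an SD of 0.059 and the 3 WT medians an SD of 0.32. Set against WT2 and WT3 alone, every KO library was lower for 9 members, or 10.6%, against 12.9% of all genes tested, and higher for 21, or 24.7%, against 13.3%.

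**Figure D2:**
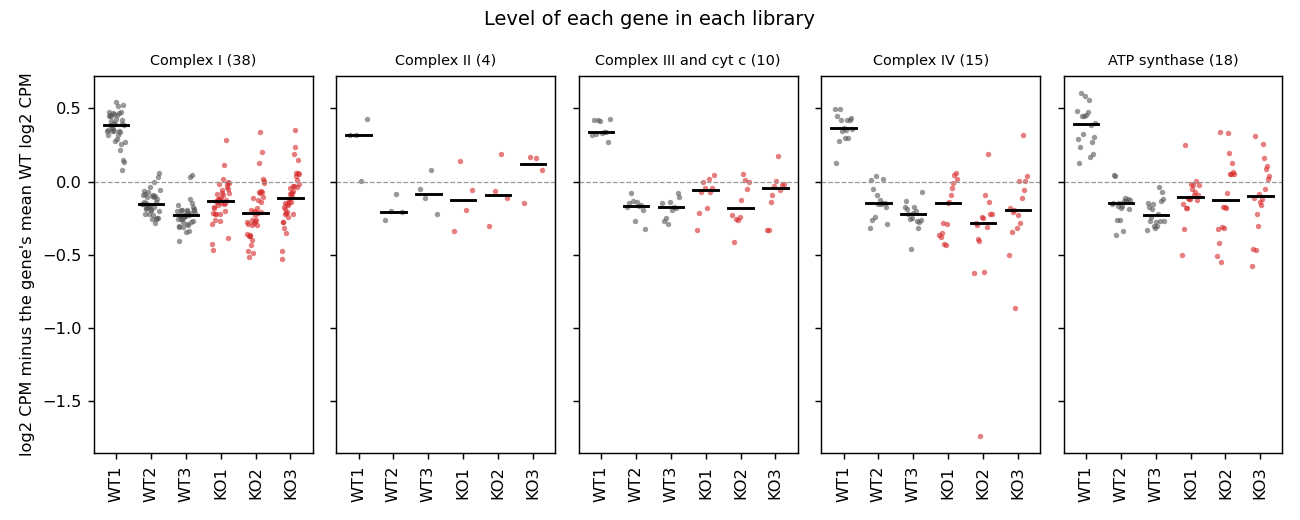
Level of each tested gene in each library (y axis: log2 CPM minus the gene's mean WT log2 CPM), 1 panel per complex, WT in grey and KO in red, black bars the median. In every panel the WT1 median is the highest, and the KO points overlap those of WT2 and WT3.

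The complexes did not share 1 value. Complex IV had the lowest median log2 fold change, -0.24, with 14 of 15 tested members below 0. Complex I followed at -0.19 (34 of 38), then ATP synthase at -0.14 (13 of 18) and complex III with cytochrome c at -0.13 (9 of 10). Complex II, the only one whose subunits are all nuclear-encoded, had a median of 0.0002 with 2 of 4 below 0. These medians are descriptions, since the complexes were not tested against each other. The complexes also differed in coding length, with 189 to 516 bases in tested complex IV members and 477 to 1992 in complex II. The part of coding length in the medians was not tested. Without WT1 the medians were -0.08 for complex IV, 0.03 for complex I, 0.14 for ATP synthase, 0.09 for complex III and 0.12 for complex II, so that complex IV alone kept a median below 0.

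The 2 members called lower were Atp5e and Cox7a1. Atp5e (ENSMUSG00000016252) encodes the epsilon subunit of the central stalk of ATP synthase and lies on chromosome 2 from 174461072 to 174464105 in GRCm38. Its CPM was 109.6, 70.3 and 62.4 in WT1, WT2 and WT3 and 55.3, 55.0 and 52.6 in KO1, KO2 and KO3. All 3 KO libraries lay below all 3 WT libraries, and WT1 stood far above WT2 and WT3. Its mean was 80.8 ± 25.3 CPM in WT and 54.3 ± 1.47 CPM in KO (SD, n = 3), a fitted fold of 0.673 (log2 fold change -0.57, SE 0.19, adjusted p = 0.375, edgeR). Without WT1 the log2 fold change was -0.29 and the gene was no longer called.

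Cox7a1 (ENSMUSG00000074218), the muscle form of subunit 7a of complex IV, lies on chromosome 7 from 30184144 to 30186078. Its CPM was 93.1, 53.0 and 58.6 in WT1, WT2 and WT3 and 51.4, 42.9 and 46.7 in KO1, KO2 and KO3. Again the groups did not overlap, with KO1 at 51.4 CPM just under WT2 at 53.0 CPM. Its mean was 68.2 ± 21.7 CPM in WT and 47.0 ± 4.24 CPM in KO (SD, n = 3), a fitted fold of 0.689 (log2 fold change -0.54, SE 0.20, adjusted p = 0.434, edgeR). It was not called in the fits that left out WT1, KO2 or KO3, and its value without WT1 was -0.25.

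The sequences upstream of these 2 genes are shown because they are the members called. That of Sdhd, a complex II membrane anchor that was not called, is shown beside them as 1 of the 6 members whose windows held both the NRF1 and the ETS letters given here, and was chosen after the matches were seen. RefSeq promoter windows (GRCm38.p6, 250 bases before to 50 after the start) were found for 70 of the 87 member symbols. Those without a matched window included Atp5a1, Atp5mpl, Cox4i1, Cox4i2, Cox6a2, Cox6c, Cox8c, Cyc1, Ndufa2, Ndufa4l2, Ndufb9, Ndufs1, Sdhc, Uqcrb, Uqcrc2 and Uqcrq. The 250 bases before the start are printed 5′ to 3′ on the gene's strand, and capitals mark the letters CGCNTGCGC, part of the site bound by NRF1, or CCGGAAG, bound by ETS factors such as GABPA, on either strand. They lie at chr2:174464102-174464351 on the minus strand for Atp5e, chr7:30183921-30184170 on the plus strand for Cox7a1 and chr9:50603850-50604099 on the minus strand for Sdhd.
Atp5e: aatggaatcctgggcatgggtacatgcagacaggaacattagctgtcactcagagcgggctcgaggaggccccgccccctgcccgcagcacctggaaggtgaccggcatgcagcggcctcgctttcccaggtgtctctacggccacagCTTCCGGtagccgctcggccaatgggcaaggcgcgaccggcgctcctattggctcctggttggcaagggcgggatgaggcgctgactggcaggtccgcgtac
Cox7a1: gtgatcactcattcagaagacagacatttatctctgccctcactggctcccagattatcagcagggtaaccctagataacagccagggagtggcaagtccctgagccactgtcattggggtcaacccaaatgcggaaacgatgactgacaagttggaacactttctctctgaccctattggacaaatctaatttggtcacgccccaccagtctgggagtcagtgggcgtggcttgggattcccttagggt
Sdhd: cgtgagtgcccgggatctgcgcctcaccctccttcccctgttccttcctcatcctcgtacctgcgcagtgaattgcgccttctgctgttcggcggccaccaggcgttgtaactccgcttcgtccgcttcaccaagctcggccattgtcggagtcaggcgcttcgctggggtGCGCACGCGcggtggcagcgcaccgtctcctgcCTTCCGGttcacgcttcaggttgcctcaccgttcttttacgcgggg
The upstream stretch of Atp5e held the ETS letters once, that of Sdhd held both once, and that of Cox7a1 held neither.

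Both NRF1 and GABPA are known as activators of nuclear genes for oxidative phosphorylation. Over the whole windows of 300 bases, the NRF1 letters were present in 21 of 70 members (30.0%) and in 9.63% of 17492 protein-coding genes with a window. The ETS letters were present in 16 members (22.9%) and 12.9% of all genes. The estrogen-related receptor letters TCAAGGTCA were present in 2 members, Sdhd and Atp5g3 (2.86%), and in 0.377% of all genes, and the letters TATAAA in 7 of 70 members and 14.8% of all genes. All were searched on both strands. A match is a description of these letters and not of binding. The tested members with the NRF1 letters had a median log2 fold change of -0.19 and those with a window but without the letters had one of -0.20. The RNA of the factors themselves overlapped between the groups. Nrf1 had 4.18, 4.20 and 4.61 CPM in WT and 3.95, 4.57 and 4.71 CPM in KO, and Gabpa had 26.7, 26.0 and 28.1 CPM in WT and 23.6, 27.7 and 26.3 CPM in KO.

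Complex I, the NADH dehydrogenase, was split by role. The 7 core members, which carry the flavin and iron-sulfur clusters and the quinone site, had a median log2 fold change of -0.10, and the 31 accessory members one of -0.20. Core members had 636 (Ndufs8) to 2181 (Ndufs1) coding bases and accessory members 210 (Ndufa1) to 1404 (Ndufv3), most of them under 600. The part of coding length in this split was not tested. Without WT1 most members of both parts were above 0, and the median of the whole complex was 0.03. Of the core, Ndufs1 had 263, 229 and 256 CPM in WT and 243, 287 and 250.4 CPM in KO (log2 fold change 0.06, SE 0.14, adjusted p = 0.917, edgeR). Ndufv1, the flavin-binding subunit, had 134, 108 and 106 CPM in WT and 100.3, 109 and 113 CPM in KO. The groups overlapped for both, and their log2 fold changes were 0.06 and -0.11. Ndufs1 was among the few members for which WT1 was not the highest library.

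The accessory subunits form a shell around that core. Ndufa1, Ndufa2 and Ndufa3 were the complex I members with the smallest p-values among the lower ones, and in each all KO libraries lay below all WT libraries. Ndufa1 (ENSMUSG00000016427, chromosome X from 37187588 to 37191163), a small subunit of the membrane arm, had 27.8, 20.4 and 18.2 CPM in WT and 17.8, 17.0 and 15.1 CPM in KO (log2 fold change -0.41, SE 0.16, adjusted p = 0.446, edgeR). Ndufa2, on the matrix arm, had 37.5, 26.6 and 25.7 CPM in WT and 22.0, 24.4 and 21.2 CPM in KO (log2 fold change -0.41, SE 0.16, adjusted p = 0.440, edgeR). Ndufa3 (ENSMUSG00000035674, chromosome 7 from 3617373 to 3620327) had 36.6, 26.4 and 26.2 CPM in WT and 21.3, 24.0 and 24.2 CPM in KO (log2 fold change -0.36, SE 0.15, adjusted p = 0.474, edgeR). The closest pair was in Ndufa1, with KO1 at 17.8 CPM and WT3 at 18.2 CPM. Without WT1 their log2 fold changes were -0.22, -0.21 and -0.18. Ndufb8, a membrane-arm subunit often used to stain for complex I, had 137, 93.0 and 88.6 CPM in WT and 89.2, 86.4 and 101 CPM in KO (log2 fold change -0.20, SE 0.18, adjusted p = 0.732, edgeR), with KO libraries on both sides of WT2 and WT3. Its sign turned without WT1, to 0.02.

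Few complex I members were above 0. Ndufa10, an accessory subunit related to nucleoside kinases, had 156, 114 and 105 CPM in WT and 133, 134 and 141 CPM in KO (log2 fold change 0.12, SE 0.16, adjusted p = 0.834, edgeR), so the KO libraries lay between WT1 and the other WT libraries. Ndufa4l2, a relative of Ndufa4 known to be induced by low oxygen, was almost silent at 1.54, 1.06 and 1.32 CPM in WT and 1.17, 1.63 and 1.65 CPM in KO. Its log2 fold change of 0.19 had an SE of 0.29. The 30 complex I members not named had log2 fold changes from -0.36 (Ndufc1) to 0.12 (Ndufc2), with SEs of 0.14 to 0.21. Of these 30, 29 were below 0 and WT1 was the highest library in 29, and 11 were below 0 without WT1.

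Complex II is succinate dehydrogenase, which is also a citric acid cycle enzyme. Sdha, its flavoprotein, had 418, 393 and 439 CPM in WT and 364, 474 and 466 CPM in KO (log2 fold change 0.06, SE 0.16, adjusted p = 0.926, edgeR). The iron-sulfur subunit Sdhb had 237, 152 and 151 CPM in WT and 169, 163 and 186 CPM in KO. The anchor Sdhc had 142, 99.3 and 106 CPM in WT and 126, 109 and 129 CPM in KO. For these 3 genes the KO libraries lay within the WT range or, for Sdha, on both sides of it. The other anchor, Sdhd, whose upstream sequence is printed above, had 154, 103 and 119 CPM in WT and 97.6, 100.2 and 111 CPM in KO (log2 fold change -0.28, SE 0.16, adjusted p = 0.610, edgeR). Sdhd was the member of this complex with the lowest log2 fold change, -0.28, and the groups overlapped at KO3 and WT2.

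For the complex III members named here and cytochrome c, the differences were smaller than their standard errors. The Rieske iron-sulfur protein Uqcrfs1 had 239, 173 and 166 CPM in WT and 168, 174 and 190.4 CPM in KO. The core protein Uqcrc1 had 368, 259 and 258 CPM in WT and 295, 301 and 327 CPM in KO. Its partner Uqcrc2 had 356, 259 and 279.8 CPM in WT and 286, 285 and 290.4 CPM in KO. In all 3 genes WT1 was the highest library. Cytochrome c1, Cyc1, had 188, 117 and 128 CPM in WT and 137, 119 and 138 CPM in KO. The soluble carrier Cycs had 522, 311 and 362 CPM in WT and 401, 388 and 383 CPM in KO. The log2 fold changes of these 5 genes lay between -0.14 and 0.06 with SEs of 0.16 to 0.19, and edgeR's adjusted p-values between 0.836 and 0.972. Without WT1 all 5 were above 0, between 0.07 and 0.25. The 4 complex III members not named had log2 fold changes of -0.35 (Uqcr10) to -0.06 (Uqcrb), and WT1 was the highest library in all 4.

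Complex IV holds the muscle forms. Among them, Cox6a2 had 295, 243 and 192 CPM in WT and 237, 273 and 299 CPM in KO (log2 fold change 0.15, SE 0.18, adjusted p = 0.808, edgeR), and it was the only tested complex IV member above 0. Its general partner Cox6a1 had 5.31, 3.39 and 3.95 CPM in WT and 4.19, 3.55 and 4.26 CPM in KO. Cox6a2 made up 98.3% ± 0.32 of the summed Cox6a CPM in WT and 98.5% ± 0.23 in KO (SD, n = 3; exact permutation p = 0.3, adjusted p = 0.7). The fiber form thus prevailed in every library of both genotypes.

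The general partner of Cox7a1 is Cox7a2. It had 71.7, 43.8 and 46.1 CPM in WT and 41.1, 42.7 and 41.3 CPM in KO (log2 fold change -0.37, SE 0.18, adjusted p = 0.533, edgeR), with no overlap, and did not pass the unadjusted threshold. The share of Cox7a1 in the summed Cox7a CPM was 55.7% ± 0.92 in WT and 52.9% ± 2.72 in KO (SD, n = 3; exact permutation test, 2-sided, p = 0.2, adjusted p = 0.7 over 7 ratios). The ranges of the share overlapped. Cox8b, the muscle form of subunit 8, had 69.7, 55.7 and 49.3 CPM in WT and 47.4, 43.9 and 49.8 CPM in KO (log2 fold change -0.31, SE 0.15, adjusted p = 0.534, edgeR). The general form Cox8a had 10.8, 8.09 and 7.84 CPM in WT and 8.02, 5.75 and 8.83 CPM in KO. The Cox8b share was 86.7% ± 0.53 in WT and 86.3% ± 1.86 in KO (exact permutation p = 0.8, adjusted p = 0.8).

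Cox4i1, the main form of the regulatory subunit 4, had 300.2, 203 and 185 CPM in WT and 231, 203 and 215 CPM in KO. The lung and low-oxygen form Cox4i2 had 0.730, 0.560 and 0.395 CPM in WT and 0.403, 0.163 and 0.299 CPM in KO, a log2 fold change of -0.94 with an SE of 0.50 (edgeR adjusted p = 0.571). This was the most negative value of any member and the one with the largest SE. The level was near the floor, where 3 counts stand for 0.103 to 0.118 CPM by the raw library totals. Cox4i2 was 0.244% ± 0.031 of the summed Cox4i CPM in WT and 0.131% ± 0.047 in KO, without overlap (exact permutation test, 2-sided, p = 0.1, the smallest that 3 against 3 allows, adjusted p = 0.7). Cox5a had 231, 139 and 137 CPM in WT and 122, 123 and 143 CPM in KO (log2 fold change -0.38, SE 0.20, adjusted p = 0.569, edgeR), and only KO3 reached into the WT range. Cox5b had 201, 132 and 124 CPM in WT and 155, 128 and 149 CPM in KO, with a log2 fold change of -0.08 that turned to 0.17 without WT1. The 4 complex IV members not named lay between -0.31 (Cox6b1) and -0.18 (Cox7b).

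The remaining member with an unadjusted p under 0.05 was Cox7a2l, counted in complex IV by its name and singled out here after its values were seen. It had 48.3, 44.6 and 40.5 CPM in WT and 34.2, 36.4 and 39.2 CPM in KO (log2 fold change -0.28, SE 0.13, adjusted p = 0.500, edgeR). Of the 9 members whose KO libraries all lay below WT it moved least when WT1 was left out, to -0.22. The other members without overlap, also named after their values were seen, were Atp5k of the ATP synthase membrane part (log2 fold change -0.32) and Uqcrh, the hinge protein of complex III (-0.32), which were -0.16 and -0.14 without WT1.

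In ATP synthase the catalytic head and the membrane part had different medians with all 6 libraries, a difference that was not tested. The 5 F1 members had a median log2 fold change of 0.04, with 2 below 0, and the 12 members of the Fo part and stalk had one of -0.18, with 11 below 0. Atp5a1, Atp5b and Atp5c1 had 894 to 1659 coding bases and were above 0, while Atp5d (504) and Atp5e (156) were below. The Fo part and stalk had 174 (Atp5mpl) to 768 (Atp5f1) coding bases, and the part of coding length was not tested. Without WT1 most members of both parts were above 0. The F1 values then ran from -0.29 (Atp5e) to 0.18 (Atp5c1), and those of the Fo part and stalk from -0.22 (Atp5g2) to 0.47 (Atp5h). Atp5b, the catalytic beta subunit, had 1355, 1094 and 1132 CPM in WT and 1089, 1299 and 1282 CPM in KO (log2 fold change 0.04, SE 0.16, adjusted p = 0.959, edgeR). Atp5a1, its alpha partner, had 1149, 930.3 and 995 CPM in WT and 958, 1169 and 1143 CPM in KO (log2 fold change 0.09, SE 0.16, adjusted p = 0.886, edgeR). In both, the KO libraries lay across the WT range. Atp5e, in the same F1 group, was at -0.57, the lowest value of the complex.

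The rotor ring of Fo is built from copies of subunit c, which is encoded by 3 genes. The last 225 coding bases, 75 codons, were taken from the GENCODE M21 transcripts to show that the 3 RNAs can be told apart although they encode the same mature stretch. Capitals in Atp5g2 and Atp5g3 mark bases that differ from Atp5g1. The genes lie on chromosomes 11, 15 and 2.
Atp5g1: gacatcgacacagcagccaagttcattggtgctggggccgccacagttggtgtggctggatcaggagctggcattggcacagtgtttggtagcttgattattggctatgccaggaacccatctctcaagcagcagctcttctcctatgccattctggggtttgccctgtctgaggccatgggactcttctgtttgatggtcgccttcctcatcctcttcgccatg
Atp5g2: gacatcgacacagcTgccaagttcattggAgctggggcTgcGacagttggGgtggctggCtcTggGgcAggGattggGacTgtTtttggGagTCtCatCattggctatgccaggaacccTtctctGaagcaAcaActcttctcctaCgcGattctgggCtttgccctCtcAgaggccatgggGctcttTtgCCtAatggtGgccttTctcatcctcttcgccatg
Atp5g3: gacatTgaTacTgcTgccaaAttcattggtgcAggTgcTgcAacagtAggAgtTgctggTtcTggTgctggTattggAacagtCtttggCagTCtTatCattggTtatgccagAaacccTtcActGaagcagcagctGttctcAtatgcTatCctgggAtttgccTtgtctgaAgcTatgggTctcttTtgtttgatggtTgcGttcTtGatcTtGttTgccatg
Atp5g2 differed from Atp5g1 at 34 bases and Atp5g3 at 45, and all 3 stretches translated to the same amino acids. Over the whole transcripts the longest identical run was 21 bases between Atp5g1 and Atp5g2, 11 between Atp5g1 and Atp5g3 and 8 between Atp5g2 and Atp5g3.

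The shares of the 3 genes overlapped between genotypes. Atp5g1 had 220.2, 122 and 118 CPM in WT and 135, 130.3 and 134 CPM in KO. Atp5g2 had 61.2, 58.0 and 49.9 CPM in WT and 44.9, 42.0 and 51.9 CPM in KO. Atp5g3 had 212, 129 and 136 CPM in WT and 137, 125 and 133 CPM in KO. In all 3 WT1 was the highest library. Their log2 fold changes were -0.20, -0.29 and -0.27, with SEs of 0.22, 0.14 and 0.19 and edgeR adjusted p-values of 0.792, 0.536 and 0.664. Of the summed CPM of the 3 genes, Atp5g1 took 41.0% in WT and 42.8% in KO, Atp5g2 took 15.9% and 14.9%, and Atp5g3 took 43.1% and 42.3%, with exact permutation p-values of 0.4, 0.6 and 0.7 (adjusted p = 0.7, 0.8 and 0.8). Without WT1 the values were 0.15, -0.22 and -0.01, so Atp5g1 turned sign.

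On the higher side, Atp5s, the coupling factor B associated with ATP synthase, had 8.80, 7.66 and 6.19 CPM in WT and 8.90, 9.46 and 9.28 CPM in KO (log2 fold change 0.29, SE 0.16, adjusted p = 0.580, edgeR). It was the only member whose KO libraries all lay above the WT libraries, with KO1 at 8.90 CPM next to WT1 at 8.80 CPM. It was 0.41 without WT1. Atp5h, of the peripheral stalk, had 217, 117 and 126 CPM in WT and 145, 185 and 176 CPM in KO (log2 fold change 0.14, SE 0.23, adjusted p = 0.873, edgeR). Here WT1 was the highest and the KO libraries all exceeded WT2 and WT3, and without WT1 the value was 0.47. The 9 ATP synthase members not named ran from -0.46 (Atp5mpl) to 0.04 (Atp5c1), with 8 below 0 and 2 of 9 below 0 without WT1.

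**Figure D3:**
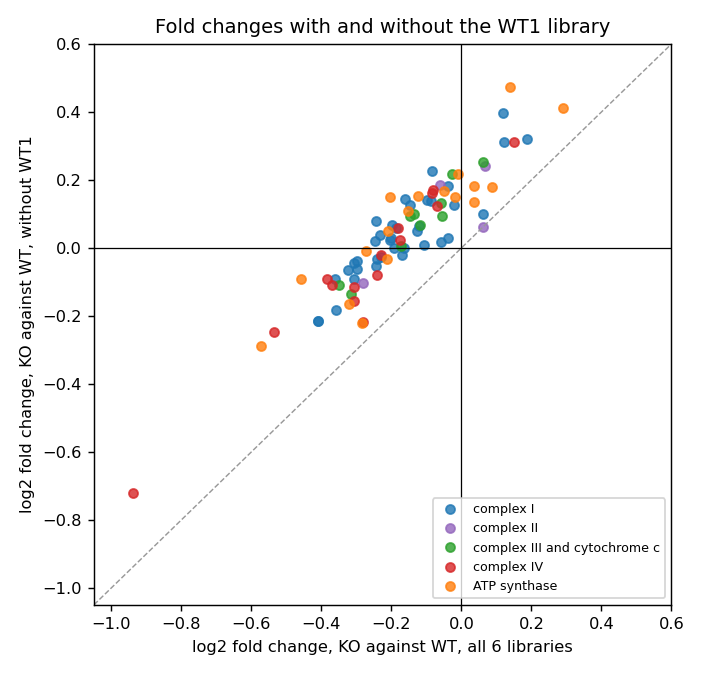
Log2 fold change of KO against WT for each tested gene with all 6 libraries (x axis) and without WT1 (y axis), colored by complex; the dashed line marks equal values. Nearly all points lie above the dashed line, and the median moved from -0.17 to 0.05.

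The log2 fold change was lower in members with a short coding sequence. Of the members with under 300 coding bases, 21 of 23 were below 0, with a median log2 fold change of -0.31. The median was -0.20 for the 40 members of 300 to under 600 bases, -0.06 for the 13 of 600 to under 1200 bases and 0.04 for the 9 of 1200 bases and over. Atp5e, at 156 bases, is the shortest member, and Ndufs1, at 2181 bases, the longest. Other protein-coding genes showed the same order, with medians of -0.17, -0.12, -0.05 and 0.05 in the same classes. Across genes, Spearman's rho between log2 fold change and coding length was 0.558 over 85 members and 0.275 over 12274 protein-coding genes, which share libraries and are not independent. The members are short, with a median coding length of 423 bases against 1368 over all tested protein-coding genes.

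WT1 and length overlapped in these data. Among other protein-coding genes with under 300 coding bases WT1 was the highest library for 48.1%, and among those with 1200 and over for 11.5%. Without WT1 the member medians were -0.09, 0.03, 0.15 and 0.09 from the shortest to the longest class, and rho was 0.488. The medians of other protein-coding genes were then -0.06, -0.06, -0.03 and 0.03, so that the order no longer held for the shortest 2 classes, and rho over the 12274 genes was 0.149. With an offset for counted gene length the median of the members was -0.06, with 57 of 85 below 0 and none called, where 5.14% of all genes tested were. What sets the length relation was not tested.

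**Figure D4:**
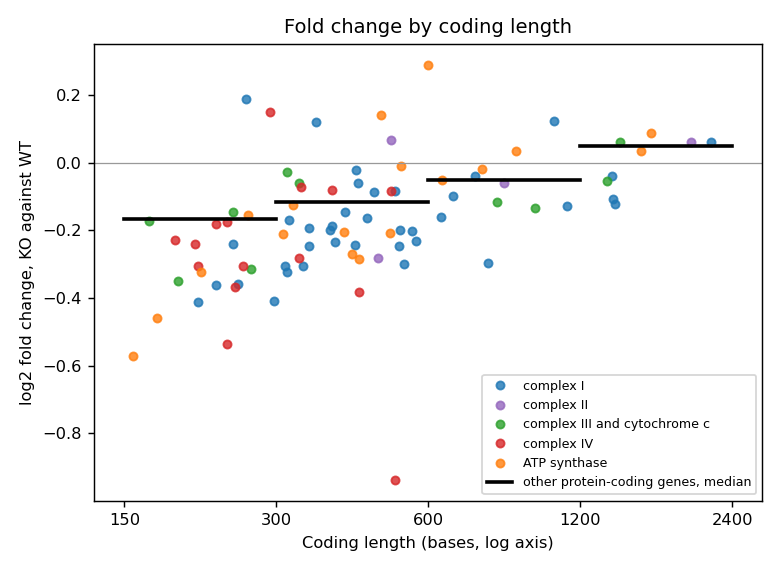
Log2 fold change of KO against WT (y axis) against coding length on a log axis for the 85 tested genes, colored by complex; black lines are the median of other protein-coding genes in 4 length classes. Members run from a median of -0.31 in the shortest class to 0.04 in the longest.

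The subunits made in the mitochondrion had values on the other side of 0. Of the 13 mitochondrially encoded subunits, 12 were above 0, with a median log2 fold change of 0.46, and 3 were called higher (against 2.21% of all genes tested), mt-Nd4l, mt-Nd5 and mt-Nd6, all of complex I. Without WT1, 10 of the 13 were called higher, against 2.60% of all genes tested in that fit. mt-Nd5 had 20190, 14308 and 14354 CPM in WT and 34629, 28545 and 20815 CPM in KO (log2 fold change 0.78, SE 0.23, edgeR adjusted p = 0.316). For the 13 genes the median level relative to the WT mean was 0.40, -0.16 and -0.25 in WT1, WT2 and WT3 and 0.61, 0.52 and 0.34 in KO1, KO2 and KO3. WT1 was thus high for subunits of both genomes, whereas the KO libraries were high for the mitochondrial list and not for the nuclear one. Without WT1 the mitochondrial median was 0.69 while that of the nuclear members was 0.05. The difference between the lists was not tested.

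**Figure D5:**
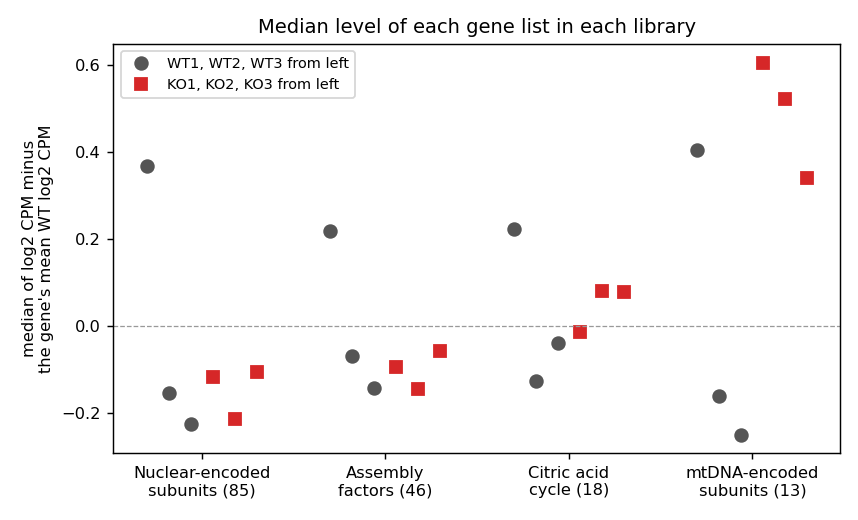
Median level of 4 gene lists in each library (y axis: log2 CPM minus the gene's mean WT log2 CPM), WT as grey circles and KO as red squares, numbers of genes in brackets. KO libraries sit beside WT2 and WT3 for the nuclear-encoded subunits and above them for the subunits encoded by mitochondrial DNA (mtDNA).

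Of 46 assembly factors, which build the complexes but do not stay in them, 35 were below 0, with a median log2 fold change of -0.10. Against 3.14% of all genes tested, 1 of the 46 was called lower, the complex II factor Sdhaf4 (-0.54, SE 0.22, edgeR adjusted p = 0.455). Without WT1 22 of 46 were below 0 and none was called. Of 20 regulators of mitochondrial biogenesis, 12 were below 0 with a median of -0.03 and none was called, and without WT1 the count was again 12 and the median -0.04. Ppargc1a, the coactivator PGC-1 alpha, had 24.9, 20.5 and 28.3 CPM in WT and 27.5, 27.3 and 21.8 CPM in KO, and Tfam, which packages and transcribes mitochondrial DNA, had 28.6, 25.3 and 26.3 CPM in WT and 25.2, 21.3 and 21.6 CPM in KO.

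Of 18 citric acid cycle genes, 6 were below 0, with a median of 0.05. Without WT1, 1 of 18 was below 0, the median was 0.14 and 1 gene was called higher, against 2.60% of all genes tested in that fit. The gene was Idh2, the mitochondrial NADP-linked isocitrate dehydrogenase (0.65, against 0.53 with all libraries, named after its values were seen). Of 20 genes for ATP and ADP exchange and the outer membrane, 13 were below 0, with a median of -0.06, and 1 was called lower, against 3.14% of all genes tested. Without WT1, 5 of 20 were below 0, the median was 0.07 and none was called. The gene called lower with all libraries was Slc25a5, the ADP/ATP carrier of many tissues, at 22.1, 16.2 and 17.5 CPM in WT and 15.1, 10.4 and 10.8 CPM in KO (log2 fold change -0.62, SE 0.17, edgeR adjusted p = 0.301). Without WT1 its value was -0.48. The muscle carrier Slc25a4 was far more abundant in counts and had 2038, 1407 and 1312 CPM in WT and 1424, 1373 and 1531 CPM in KO (log2 fold change -0.14, SE 0.19, edgeR adjusted p = 0.840).

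Levels of different members were compared per counted length, as transcripts per 1000000 (TPM) in WT. Cox6a2 was the highest at 392 ± 33.0 TPM, followed by Atp5a1 at 363 ± 39.0 and Atp5b at 312 ± 27.4 (SD, n = 3), and these neighbors overlapped within their spread. Cox8b had 178 ± 6.0 TPM and Cycs 127 ± 16.0. The lowest tested members were Cox4i2 at 0.773 ± 0.115 TPM and Ndufa4l2 at 1.32 ± 0.197. The counted length joins all exons of a gene, so a gene with long and little used exons reads low on this scale. A separate row named Atp5o (ENSMUSG00000116933), a readthrough transcript, was left out of this order, because all 530 of its counted bases are shared with other rows, Atp5o (ENSMUSG00000022956) among them, and the reads of both cannot be told apart. Those 2 rows had log2 fold changes of -0.01 and -0.05.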

How the data were processed

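RNA of the TA muscle from 3 WT and 3 SELENOW KO mice was sequenced as paired-end reads. The authors used HISAT2 for alignment and deposited raw, unnormalized counts for 55416 genes, with a gene length. Per the labels the build is GRCm39, while the study's methods name GRCm38, so gene positions given here come from GENCODE M21. The deposited positions were used only to find counted bases shared between rows. Symbols were matched by identifier (52083 genes). How strand and reads of several origins were counted is not given in the sources used here. The rule for members, protein-coding genes only, left out 13 pseudogene or look-alike rows. The first WT column carries no number and was taken as WT1 because the others name W2 and W3.

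Genes passing filterByExpr (15623) were TMM-scaled (factors 0.893 to 1.20) and compared by edgeR's quasi-likelihood test (version 4.0.16, R 4.3.3) with robust estimation and Benjamini-Hochberg adjustment. A gene was called at an unadjusted p under 0.05 if its fold also exceeded 1.5 or lay under 0.7. These are the thresholds of the study, which applied them to results of DESeq2. CPM values are TMM-scaled unless raw library totals are named. The steps were tested on simulated data. Alternatives were DESeq2 (1.42.0), other filters and scalings, length offsets, the replicate block and leaving out each library. Replicates were separate libraries (chi-square per degree of freedom 19.3 to 70.5).

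Genes were named by a rule: a list by role, the 5 smallest p-values on each side, called members and untested members. The values of 1 member are counted in the summaries and not reported here by name. The members, lists and rule were chosen with earlier results of these data known.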

Additional observations from a re-analysis of the deposited data

How the results depend on the processing

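Over the fits that left out 1 library each, the members called ranged from 0 (without WT1, where 5.05% of all genes were called in either direction) to 4 (4.71% of 85, without WT3, where 5.91% were), those below 0 from 32 to 78 and the median of all members from -0.29 to 0.049. The complex medians ranged from -0.30 to 0.025 for complex I, -0.098 to 0.12 for complex II, -0.22 to 0.093 for complex III with cytochrome c, -0.34 to -0.079 for complex IV and -0.28 to 0.14 for ATP synthase. The sign of complex II also turned without WT2, WT3 or KO3. Among the 35 named genes followed through the alternative fits, 19 turned sign in at least 1, 11 of them without WT1. The genes that turned when 1 library was left out ranged as follows: Ndufs1 (-0.013 to 0.11), Ndufv1 (-0.17 to 0.0099), Ndufb8 (-0.32 to 0.022), Sdha (-0.0028 to 0.18), Sdhb (-0.17 to 0.19), Sdhc (-0.030 to 0.24), Uqcrfs1 (-0.22 to 0.069), Uqcrc1 (-0.027 to 0.25), Uqcrc2 (-0.14 to 0.093), Cyc1 (-0.26 to 0.10), Cycs (-0.18 to 0.22), Cox4i1 (-0.22 to 0.16), Cox5b (-0.21 to 0.17), Cox6a1 (-0.20 to 0.12), Atp5b (-0.021 to 0.14), Atp5g1 (-0.37 to 0.15) and Atp5h (-0.021 to 0.47). Of the named genes, 11 were below 0 and 5 above 0 in every setting.

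With an offset for counted gene length 0 members were called, where 5.14% of all genes tested were. Ndufs1 (-0.0056), Cox4i1 (0.012), Cox5b (0.011), Cox6a1 (0.18), Cox8a (0.049) and Cox8b (0.10) turned sign. An offset for coding length, added after seeing the data, also gave 0 called members, where 2.92% of the genes tested in that fit were called. It gave a median of 0.024 for ATP synthase and a turned sign for Sdhb (0.00084), Cycs (0.14), Cox4i1 (0.036), Cox5b (0.065) and Cox6a1 (0.079). The median of all members was then -0.059 or -0.053. Without a fold threshold 6 members were called, all lower, where 5.16% of all genes tested were lower and 4.73% higher. With a log2 fold change over 1 none was called, a count of 0. Without the low-count filter 2 members, Atp5e and Cox7a1, passed an adjusted p of 0.05 in edgeR, among 363 of 31780 genes tested. DESeq2 on the same genes, its size factors, a minimum of 10 counts in every library, robust estimation off and omission of mitochondrially encoded genes each gave 2 called members and a median between -0.18 and -0.17. These were 2.35% or 2.38% of the members, against 4.82% to 5.88% of all genes tested in the same fits.

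After subtraction of the group mean, same-numbered WT and KO libraries correlated at 0.060, 0.044 and -0.074 over genes, and differently numbered ones at -0.14 to 0.093. The labels state no pairing, and with 3 libraries per group these values cannot show whether the numbers pair the samples. With the replicate block 1 member, Atp5e, was called (1.18% of the members, against 5.70% of all genes tested). The median was then -0.15, 70 members were below 0 and Cycs turned sign (0.0081).

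With 3 libraries per group an exact test on 1 value cannot go under a p of 0.1, and the median SE of a member's log2 fold change was 0.17, about the size of the median difference. The labels give no batch, so an effect of the animal and one of the library cannot be told apart for WT1.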

Other observations

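Several genes with subunit-like names or roles fell outside the rule. Atpif1, the inhibitor of ATP hydrolysis by ATP synthase, had 5.72, 5.14 and 6.42 CPM in WT and 7.05, 4.32 and 6.40 CPM in KO (log2 fold change 0.04, SE 0.20). Usmg5, a small membrane subunit of ATP synthase, had 83.7, 52.8 and 50.8 CPM in WT and 57.2, 48.8 and 51.7 CPM in KO (log2 fold change -0.25, SE 0.19), again with WT1 the highest. Ndufb1-ps, which the GENCODE annotation does not class as protein-coding and RefSeq lists as the gene of a complex I subunit, had 34.6, 20.8 and 24.7 CPM in WT and 21.1, 13.8 and 17.4 CPM in KO (log2 fold change -0.61, SE 0.21, edgeR adjusted p = 0.398), and it was called lower.

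Of 8 tested processed pseudogenes named after subunits, 7 were below 0. Atp5l-ps1, Atp5l2-ps and Cox6c2 were called lower, against 3.14% of all genes tested, with log2 fold changes of -1.59, -0.76 and -1.39. The 5 not called were Atp5k-ps2 (-1.28, SE 0.89), Atp5l-ps2 (-1.53, SE 0.93), Ndufab1-ps (-0.27, SE 0.24), Ndufb4c (-0.14, SE 0.16) and Ndufs6b (0.16, SE 0.28). Cox6c2 had 2.39, 1.74 and 1.32 CPM in WT and 0.604, 1.02 and 0.449 CPM in KO, and its parent Cox6c had 216, 145 and 133 CPM in WT and 156, 130.1 and 149 CPM in KO (log2 fold change -0.18). Reads of a pseudogene and its parent may be shared, and their part in these values was not tested.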
